A study of Ichthyophis bannanicus with 29 samples.

Results

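Liver, lung and stomach, whose linings and secretory cells come from endoderm, were compared with heart, kidney and spleen, which come from mesoderm, in *Ichthyophis bannanicus*, a limbless burrowing amphibian (a caecilian). All libraries with the tissue labels of these 6 organs were used, which gave 18 of the 29 libraries of the series, 3 per organ and 9 per side. The other 11 libraries, from blood, skin, ovary and testis, were used only to read genes found in these organs. Messenger RNA was measured by RNA sequencing and given as TPM, the share of a library's transcripts that a gene takes after scaling by length, for 53113 assembled genes. The labels give the tissue and a replicate number, and no strain, age, sex or treatment. Whether the libraries of an organ are from separate animals is not said. The p-values therefore reflect the spread among these libraries alone, and that spread may be technical.

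In vertebrate embryos the inner layer, endoderm, forms the lining of the gut and the organs that bud from it, and the middle layer, mesoderm, forms muscle, blood, vessels and kidney. The adult organs of the endodermal side are mixtures of both: liver, lung and stomach also hold vessels, connective tissue, blood and smooth muscle of mesodermal origin. The organs of a side also do different work, since liver secretes plasma proteins, lung exchanges gas, stomach digests, heart contracts, kidney filters and reabsorbs, and spleen holds blood and immune cells. The comparison therefore asks whether origin leaves a difference that is shared by all 3 organs of a side. The table pairs no gene names with its assembly IDs, and 0 of 49 marker symbols of these organs and their cells matched, so the labelled organs could not be checked against markers. Genes are given by ID without a function, at most 2 per direction of a comparison. In bulk tissue, fewer cells of a type and less RNA per cell cannot be told apart.

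The libraries differed in ways that touch the results. From 23542 to 30117 genes reached 1 TPM in the endodermal libraries and from 28438 to 35795 in 8 mesodermal ones, while spleen replicate 1 had 18410. The 10 most abundant genes took 19.7% to 42.5% of TPM in endodermal libraries and 15.3% to 35.8% in mesodermal ones. TPM is a share of a library, so abundant genes lower the values of all others, and the depth behind a value is unknown. Over the 46128 genes tested, the median log2 difference, endodermal minus mesodermal, was -0.32. Rescaling each library by the median of ratios moved the endodermal libraries by a mean of 0.17 and the mesodermal ones by a mean of -0.16 on the log2 scale, a relative shift of 0.33. Single libraries moved both ways, from -0.21 to 0.51 on the endodermal side. Spleen replicate 1 moved by 1.41, and the other mesodermal libraries by -0.73 to 0.21. Liver replicate 2 held a gene abundant in spleen at 690 TPM. The comparison was planned with a repeat without kidney replicate 1 and liver replicate 2, so results are also given without both. Kidney replicate 1 was not among the libraries flagged below as far from the rest.

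The means of the sides differed for many genes. A gene was called when the Benjamini-Hochberg adjusted p of limma was under 0.05 and the log2 difference was 1 or more in size. Genes were tested if 2 or more of the 18 libraries held 1 TPM of them, which left 46128. Of these, 1883 (4.08%) were higher in endodermal organs and 6406 (13.9%) lower. Among called genes, the median log2 difference was 1.49 for those higher, with a median SE of 0.27, and -1.34 for those lower, with a median SE of 0.25 (n = 9 libraries a side). The SE and p-values of this fit rest on the spread of libraries within an organ. They say nothing of the spread between organs of a side, so the libraries are not replicates of a side. Without kidney replicate 1 and liver replicate 2, 45552 genes were tested and 1749 were higher and 5913 lower. Of the calls made with all libraries, 84.9% of the higher and 85.0% of the lower ones were shared with that fit. Leaving out lung replicate 1 raised the higher genes to 2869.

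The excess of lower genes depended on scaling. In TPM as deposited, 22.7% of the calls were higher in endodermal organs. After rescaling there were 2739 higher and 3981 lower genes, so 40.8% were higher. Of the 1883 higher genes 1881 were also called after rescaling, and of the 6406 lower genes 3953 were.

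The side means hid large differences between organs of the same side. Kidney differed from the mean of heart and spleen by 7874 genes higher (17.1%) and 1505 lower (3.26%), and spleen from heart and kidney by 1557 higher (3.38%) and 12274 lower (26.6%). Heart had 3776 genes higher (8.19%) and 4390 lower (9.52%) than the rest of its side. On the endodermal side, liver had 4602 higher (9.98%) and 3292 lower (7.14%), lung 5072 higher (11%) and 2345 lower (5.08%), and stomach 1571 higher (3.41%) and 3512 lower (7.61%). These contrasts have a larger standard error than that of the sides, so the counts are not sizes of effect. They are given only for all libraries in TPM as deposited. Spleen replicate 1, with 18410 genes at 1 TPM against 30065 and 28438 in spleen replicates 2 and 3, is among them. Its part in the spleen counts was not tested.

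For each gene, the spread of the 6 organ means was split into a part between sides and a part between organs within sides. The part between sides had a median of 19.5% over genes, with quartiles of 5.68% and 33.2%. It holds 20% of the degrees of freedom, which is what its mean would be without an effect of side. Its median would then be lower, so the median is not to be read against 20%. The part between sides was over 50% for 4931 genes (10.7%), and this share was not tested against one expected without an effect. Genes called higher in endodermal organs had a median of 27.9% and those called lower a median of 31.9%. They were chosen for a difference between the sides, so a larger part between sides is built in.

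When the organ rather than the library was taken as the sample, no gene was called. In limma on the 6 organ means, 3 against 3, 0 genes were higher and 0 lower (0% each), and the smallest Benjamini-Hochberg adjusted p was 0.736. At an unadjusted p under 0.05 there were 1761 genes (3.82%). With 3 organs a side this fit recovered, in simulated data, 0% of genes changed 4-fold, 4% at 8-fold and 40% at 16-fold, so a count of 0 does not show that the sides were alike. Without liver, 8 genes were called higher and 1 lower.

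Correlations of libraries also followed organs more than sides. Across genes, Pearson's r of log2(TPM + 1) had a mean of 0.848 over 18 pairs of libraries of the same organ. It was 0.647 over 54 pairs from different organs of a side and 0.636 over 81 pairs from organs of different sides, a gap of 0.011, where the SD over pairs was 0.052 and 0.057. Heart and spleen, on the same side, were the most alike of the 15 organ pairs at 0.709, and liver and spleen, on different sides, came next at 0.706. Liver was nearer to each of the 3 mesodermal organs, at 0.669 to 0.706, than to stomach at 0.615 or lung at 0.588. Lung and stomach were near each other at 0.678, and kidney and lung were the least alike at 0.545. Pairs share libraries and genes are not independent, so these r are a description.

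**Figure D1:**
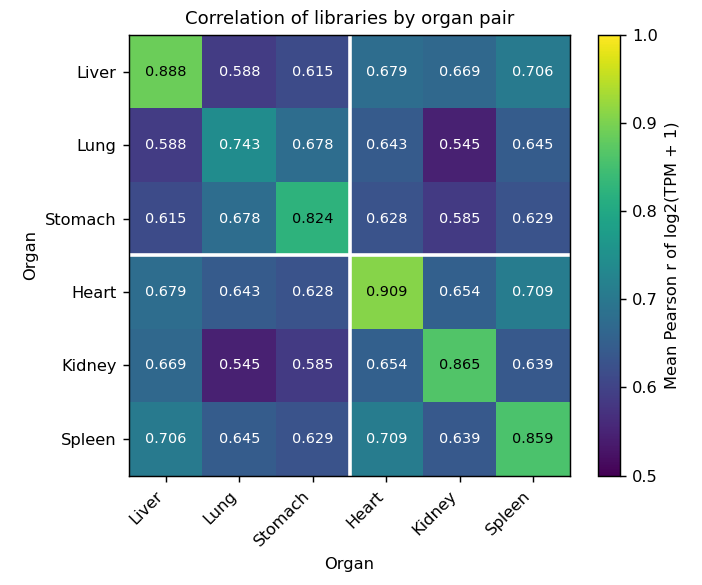
Pearson's r of log2(TPM + 1) over 46128 genes, averaged for each pair of the 6 organs, with the same-organ values on the diagonal and white lines between endodermal and mesodermal organs. Pairs within a side run from 0.588 to 0.709 and pairs between sides from 0.545 to 0.706.

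Each of the 9 pairs of an endodermal and a mesodermal organ was then tested in the same fit. Liver had 2562 genes higher (5.55%) and 4776 lower (10.4%) than heart, 1500 higher (3.25%) and 7249 lower (15.7%) than kidney, and 3432 higher (7.44%) and 1684 lower (3.65%) than spleen. Lung had 3929 higher (8.52%) and 5335 lower (11.6%) than heart, 3765 higher (8.16%) and 9885 lower (21.4%) than kidney, and 5304 higher (11.5%) and 1986 lower (4.31%) than spleen. Stomach had 2251 higher (4.88%) and 9004 lower (19.5%) than heart, 1552 higher (3.36%) and 13574 lower (29.4%) than kidney, and 3070 higher (6.66%) and 3479 lower (7.54%) than spleen. Kidney thus had the most genes above each endodermal organ, and spleen the fewest. These counts too are only for TPM as deposited with spleen replicate 1 included.

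Among genes called between the sides, 883 of the higher (46.9%) and 3194 of the lower (49.9%) were called in 3 of the 9 pairs. For 805 higher and 2760 lower genes these were the 3 pairs of 1 organ of the side where the gene was high. Genes whose 3 pairs were those of 1 organ of the low side were not counted. Kidney alone made up 1921 of the lower genes (30.0%), heart 675 (10.5%) and spleen 164 (2.56%). Liver alone made up 414 of the higher genes (22.0%), stomach 252 (13.4%) and lung 139 (7.38%).

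**Figure D2:**
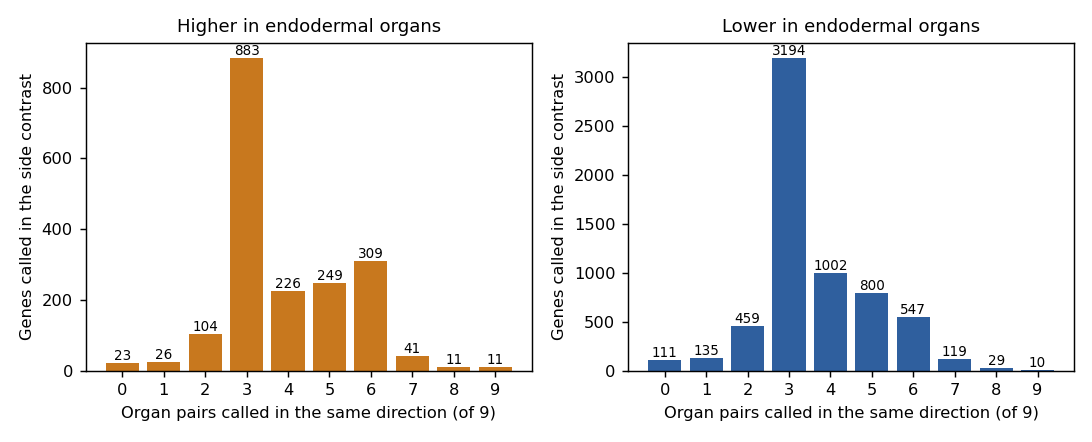
Number of the 9 organ pairs in which a gene was called in the direction of its call between the sides, for genes higher (left) and lower (right) in endodermal organs. Both distributions peak at 3 pairs, with 883 and 3194 genes, and 11 and 10 genes reach all 9.

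Genes called between the sides were also sorted by the highest organ of their side. Kidney was the highest mesodermal organ for 3096 of the lower genes (48.3%), with a median lead of 3.18 on the log2 scale over the next organ of its side, heart for 2385 with a lead of 1.19, and spleen for 925 with a lead of 1.08. On the endodermal side, stomach was highest for 795 genes, liver for 643 with a median lead of 3.78, and lung for 445. When kidney was left out, 3846 genes were lower in endodermal organs, of which 3086 were among the 6406. When spleen was left out the lower genes rose to 10858. Leaving out an organ gives the others of its side more weight in the side mean. Leaving out stomach kept 57.2% of the higher calls and 63.9% of the lower ones. Only 268 higher (14.2%) and 721 lower genes (11.3%) were called whichever of the 6 organs was left out.

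**Figure D3:**
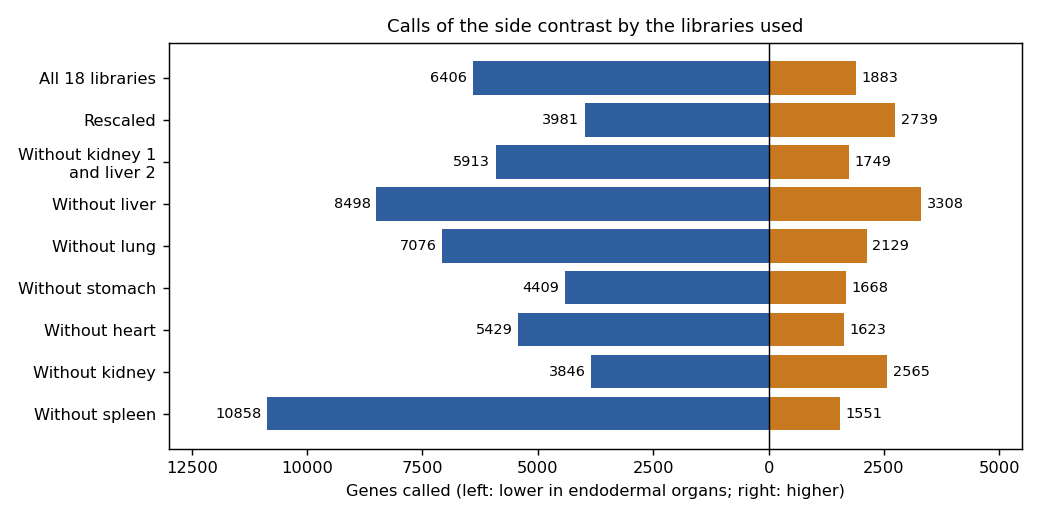
Genes called lower (left, blue) and higher (right, orange) in endodermal organs with all 18 libraries, after rescaling, without kidney replicate 1 and liver replicate 2, and without each organ in turn. The lower genes run from 3846 without kidney to 10858 without spleen.

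The genes that best show what an organ can do to a side mean are those highest in 1 organ. TRINITY_DN49458_c0_g1 was at 3049, 5160 and 2911 TPM in the kidney libraries, at 0.399 TPM in heart replicate 1 and listed at 0 in the other 14 of the 18. By limma it fell by 3.99 ± 0.14 on the log2 scale between the sides (SE; adjusted p = 1.11e-09 by Benjamini-Hochberg), although only kidney was high. Testis replicate 1 held 209 TPM of it. TRINITY_DN18340_c0_g2 had a heart mean of 3011 ± 1050 TPM (SD, n = 3), against at most 3.49 TPM in any kidney or spleen library. The spleen gene TRINITY_DN23449_c0_g1 had a spleen mean of 11290 ± 4289 TPM (SD, n = 3). It reached 690 TPM in liver replicate 2, and at most 0.097 TPM in the other 8 endodermal libraries. Its log2 difference went from -3.52 to -4.57 without kidney replicate 1 and liver replicate 2.

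Endodermal organs had genes of the same kind. TRINITY_DN24963_c0_g1 averaged 45236 ± 20772 TPM in liver (SD, n = 3), but was at most 0.112 TPM in stomach, below its kidney mean of 62.9 TPM. TRINITY_DN1855_c0_g2 had a lung mean of 17508 ± 2465 TPM (SD, n = 3), and no liver library exceeded 0.052 TPM. TRINITY_DN7584_c0_g1 averaged 107025 ± 32132 TPM in stomach (SD, n = 3), ranged from 15.0 to 500.2 TPM in lung and was at most 1.38 TPM in liver. None of the 6 genes had all organs of its side above all organs of the other.

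Genes whose organ means do lie apart were counted next. For 945 genes (2.05%) the lowest endodermal organ mean was above the highest mesodermal one, and for 3733 (8.09%) it was the reverse, 4678 (10.1%) in all. That total is close to the share expected if the 6 organ means of each gene fell in random order. Random order would give both directions equal shares, which was not so in TPM as deposited. Neither count was tested against random order, so nothing about origin is read from them. Most gaps were small: the median gap between the nearest organs was 0.12 on the log2 scale for the higher genes and 0.22 for the lower ones. A gap of 1 or more was found for 34 higher and 104 lower genes, and a gap of 2 or more for 6 and 0. Of the 8289 calls between the sides, 1921 (23.2%) were of genes whose organ means lay apart in the same direction. After rescaling there were 1951 higher and 2338 lower genes, so the share of higher genes went from 20.2% to 45.5%. Without spleen replicate 1 the lower genes numbered 5978.

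The same organs tended to set the edge. Liver was the lowest endodermal organ for 640 of the 945 higher genes (67.7%), and spleen the lowest mesodermal organ for 2045 of the 3733 lower ones (54.8%). The spleen means include spleen replicate 1, and its part in this count was not tested. Among the lower genes, liver was the highest endodermal organ for 2014 (54.0%) and stomach for 383 (10.3%). Without kidney replicate 1 and liver replicate 2 there were 985 higher and 3301 lower genes, of which 776 and 2921 were shared with the counts from all libraries. The 3733 lower genes took 4.499% to 7.36% of TPM in endodermal libraries and 8.97% to 16.4% in mesodermal ones. The 945 higher genes took 1.56% to 9.58% in endodermal libraries, highest in lung, and 0.206% to 0.504% in mesodermal ones. These shares describe genes chosen on the same values.

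Few genes kept every library apart. In 25 genes (0.0542%) all 9 endodermal libraries were above all 9 mesodermal ones, and in 120 (0.26%) all were below. limma called 21 of the 25 and 87 of the 120, against 4.08% higher and 13.9% lower among all genes tested. The 25 and 120 were chosen on the same values, so a high share of calls is built in. The lower genes were mostly differences of degree, as 72 of 120 (60%) were at 1 TPM or more in all 18 libraries, against 4 of 25 (16%) for the higher genes and 25.6% of all genes tested. They numbered 408 without spleen replicate 1, 225 without spleen replicate 3, 206 without liver replicate 1 and 188 without lung replicate 1, and the higher genes numbered 38 without liver replicate 3. Leaving out a library removes a condition, so such counts can hardly fall. Without kidney replicate 1 and liver replicate 2 there were 47 higher and 160 lower genes, which held all 25 and all 120. Rescaling gave 75 and 55, of which 22 and 27 were shared with the deposited scale.

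A gene at 1 TPM or more in all 9 libraries of a side and under 1 TPM in all 9 of the other was rarer still. There were 3 such genes in endodermal organs (0.0065%) and 5 in mesodermal ones (0.0108%). The highest level any of the 3 reached was 102 TPM and the highest any of the 5 reached was 11.3 TPM. For 2 of the 5, all endodermal libraries were listed at 0. Without spleen replicate 1 the 5 became 20, without liver replicate 1 or lung replicate 3 they became 9, and without liver replicate 3 they became 8. The 3 became 8 without stomach replicate 2.

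With each organ pair tested in turn, 11 genes (0.0238%) were called higher and 10 (0.0217%) lower in all 9 organ pairs by limma. Of these, 9 and 10 also had all libraries apart, against 0.0542% and 0.26% of all genes tested, and both counts use the same values. The 11 higher genes had organ means from 1.73 to 1574 TPM in liver, lung and stomach, with medians of 5.67, 6.78 and 7.72 TPM. Their medians were 0.226 TPM in heart, 0.902 in kidney and 0.275 in spleen. The 10 lower genes had medians of 13.6 TPM in heart, 8.25 in kidney and 12.8 in spleen, and of 1.37 in liver, 0.944 in lung and 0.269 in stomach. None of them exceeded 50.1 TPM in an organ mean, whereas the highest mean among the 11 was 1574 TPM. After rescaling 22 higher and 10 lower genes were called, with 10 of the 11 and 5 of the 10 among them. Without spleen replicate 1 the lower genes numbered 34, and leaving out kidney replicate 2 or 3 or stomach replicate 1 or 3 brought the higher ones to 7.

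TRINITY_DN28896_c0_g1 had the largest log2 difference among called genes with all libraries apart. It was at 1783, 1112 and 1827 TPM in stomach, at 193, 87.2 and 120.02 in liver and at 6.32, 11.6 and 10.4 in lung. In kidney it was at 5.07, 2.93 and 1.75 TPM, in spleen at 1.51, 0.655 and 1.96 and in heart at 0, 0.072 and 0.605. The sides did not overlap, but stomach, with a mean of 1574 TPM, was far above lung, with a mean of 9.43 TPM, and lung replicate 1 was only just above kidney replicate 1. By limma it was higher by 5.82 ± 0.22 on the log2 scale (SE; adjusted p = 1.11e-09 by Benjamini-Hochberg). With organs as samples, the SE of the same difference was 1.57.

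TRINITY_DN6327_c0_g1 was more even across the endodermal organs. It was at 58.3, 43.0 and 55.6 TPM in liver, at 62.7, 16.9 and 22.7 in lung and at 70.7, 103 and 109 in stomach. Its values were 9.18, 10.7 and 8.84 TPM in kidney, 1.56, 2.04 and 6.08 in spleen and 0.689, 1.32 and 0.797 in heart. Every endodermal library was above every mesodermal one, and kidney was the nearest mesodermal organ. It was higher by 3.64 ± 0.25 on the log2 scale (SE; adjusted p = 6.99e-08 by limma and Benjamini-Hochberg). Outside the 6 organs it was low too, at most 1.71 TPM in any library of blood, skin, ovary or testis.

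In the other direction, TRINITY_DN1421_c0_g1 was at 62.2, 41.4 and 46.6 TPM in heart, 71.4, 35.2 and 21.9 in spleen and 19.9, 13.2 and 12.6 in kidney. It was at 4.12, 2.95 and 3.28 TPM in liver, 5.29, 3.90 and 4.91 in lung and 1.12, 0.382 and 1.40 in stomach. The lowest mesodermal library, kidney replicate 3, was above the highest endodermal one, lung replicate 1. The gene fell by 3.12 ± 0.21 on the log2 scale (SE; adjusted p = 5.96e-08 by limma and Benjamini-Hochberg). It was also present in testis at 38.6 ± 6.22 TPM and in skin at 14.3 ± 3.06 TPM (SD, n = 3 each), but at 1.91 ± 0.84 TPM in blood (SD, n = 3).

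TRINITY_DN329_c3_g1 was at 18.2, 14.8 and 15.7 TPM in heart, 6.82, 22.1 and 9.001 in spleen and 4.40, 5.11 and 6.74 in kidney. In the endodermal organs it was at most 1.51 TPM, in liver replicate 3, and it was listed at 0 in stomach replicates 1 and 3 and in lung replicate 2. The nearest libraries, kidney replicate 1 and liver replicate 3, were well separated. By limma it fell by 2.85 ± 0.24 on the log2 scale (SE; adjusted p = 4.05e-07 by Benjamini-Hochberg). With organs as samples, limma gave these 4 genes unadjusted p-values of 9.56e-04 to 0.00608 and a Benjamini-Hochberg adjusted p of 0.736 each. All 4 genes kept non-overlapping sides after rescaling. Leaving out kidney replicate 1 and liver replicate 2 cannot make separated sides overlap, so it is no check of them.

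**Figure D4:**
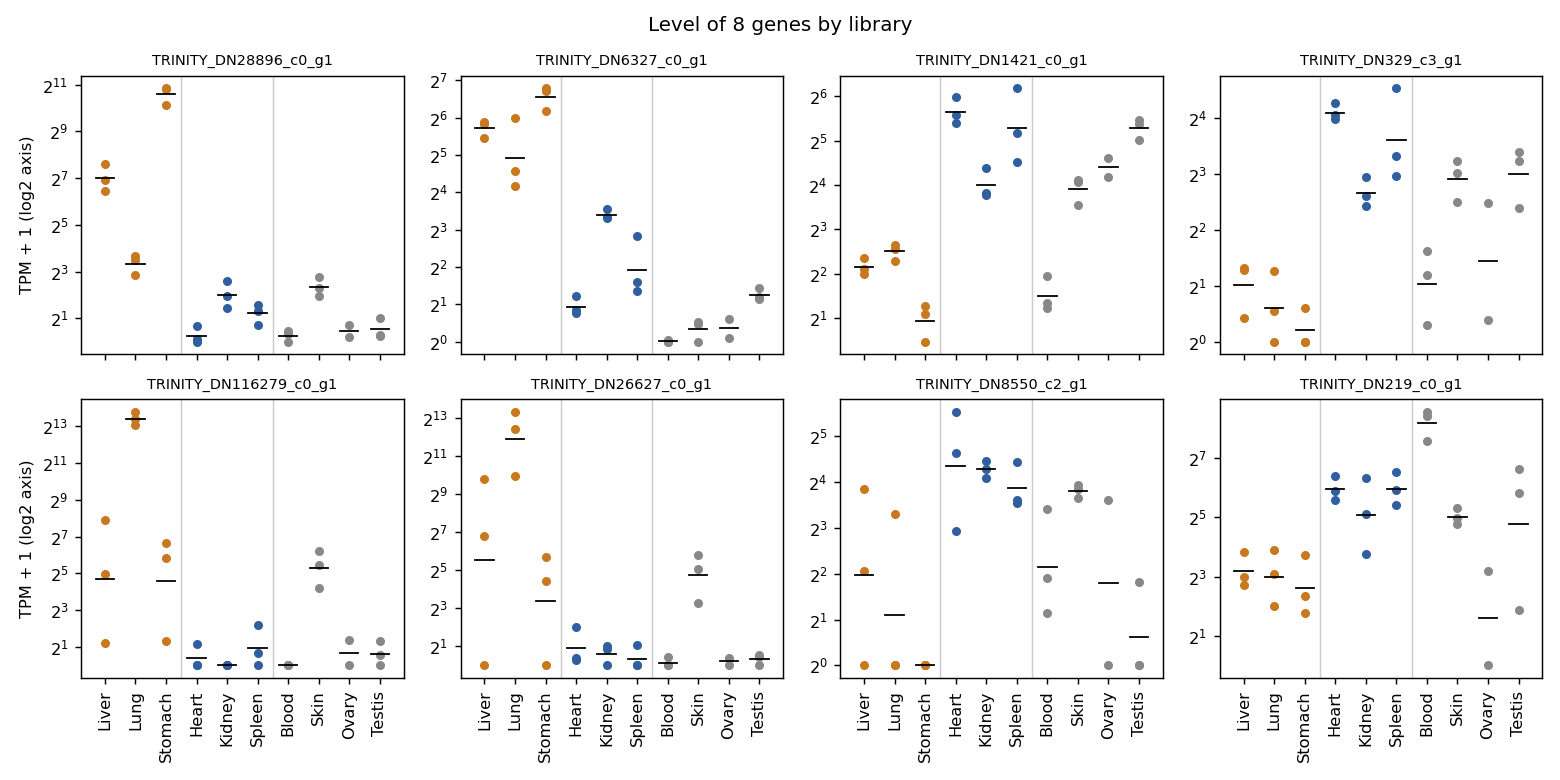
TPM + 1 on a log2 axis for 8 genes in every library of 10 tissues (points; black lines are tissue means of log2), with endodermal organs in orange, mesodermal in blue and other tissues in grey. In the upper row the orange and blue points do not overlap. In the lower row organ means are apart but libraries of a side overlap, as for TRINITY_DN116279_c0_g1, which is at 8674 TPM or more in lung and at 1.29 TPM in liver replicate 1.

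The largest gaps between organ means were found in genes of another kind. TRINITY_DN116279_c0_g1 had a gap of 3.66 on the log2 scale. It was at 10711, 13896 and 8674 TPM in lung, at 1.29, 241 and 29.7 in liver and at 55.4, 1.51 and 101 in stomach, and at most 3.51 TPM in any mesodermal library. TRINITY_DN26627_c0_g1 came next, with the second largest gap, and was at 5601, 10282 and 993 TPM in lung, at 0, 898 and 111 in liver and at 20.7, 0 and 51.9 in stomach. Its highest mesodermal library, heart replicate 1, held 2.99 TPM.

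Outside lung, both genes were high in the same libraries: liver replicate 2 held the most, and liver replicate 3 and stomach replicates 1 and 3 held more than liver replicate 1 and stomach replicate 2. They were also found in skin, at 43.6, 73.9 and 17.5 TPM for TRINITY_DN116279_c0_g1 and at 32.8, 55.9 and 8.85 TPM for TRINITY_DN26627_c0_g1. TRINITY_DN1855_c0_g2, another gene abundant in lung, was at 0.052 TPM in liver replicate 2 and at most 0.388 TPM in skin. In stomach it was at 3.81, 0.471 and 4.81 TPM, so there too replicates 1 and 3 held more than replicate 2. The source of these values was not tested. By limma, TRINITY_DN116279_c0_g1 was higher by 7.13 ± 0.81 on the log2 scale (SE; adjusted p = 7.07e-06 by Benjamini-Hochberg). TRINITY_DN26627_c0_g1 was higher by 6.33 ± 1.09 (SE; adjusted p = 3.85e-04 by limma and Benjamini-Hochberg). In the first gene, liver replicate 1 and stomach replicate 2 were below spleen replicate 3, so the libraries of the sides overlapped.

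Among genes lower in endodermal organs, TRINITY_DN8550_c2_g1 had the largest gap, 1.90 on the log2 scale. It was at 6.58, 23.8 and 45.2 TPM in heart, 21.1, 18.5 and 15.97 in kidney and 10.7, 11.2 and 20.8 in spleen. It was listed at 0 in all stomach libraries, in lung replicates 1 and 3 and in liver replicate 1, and reached 8.81 TPM in lung replicate 2 and 13.5 TPM in liver replicate 3. These endodermal libraries, which hold more than heart replicate 1, were the only ones within the mesodermal range. It fell by 3.15 ± 0.54 on the log2 scale (SE; adjusted p = 3.91e-04 by limma and Benjamini-Hochberg).

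TRINITY_DN219_c0_g1 had a gap of 1.88, and 94.1% of the spread of its organ means lay between the sides. It was at 84.1, 47.2 and 57.6 TPM in heart, 12.5, 33.4 and 80.1 in kidney and 59.9, 91.4 and 42.2 in spleen. Its values were 13.4, 6.95 and 5.63 TPM in liver, 7.54, 13.8 and 2.97 in lung and 4.02, 2.41 and 12.3 in stomach. Kidney replicate 1, at 12.5 TPM, was the only mesodermal library within the range of the endodermal ones, and without it and liver replicate 2 the sides did not overlap. By limma it fell by 2.73 ± 0.38 on the log2 scale (SE; adjusted p = 4.96e-05 by Benjamini-Hochberg). Blood held more of it than any of the 6 organs, 304 ± 98.1 TPM (SD, n = 3).

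The 4 tissues outside the comparison were read for the genes whose organ means lie apart. Each tissue was placed by rank against the organ means, which does not measure presence. The shares were not compared with those expected from random order. Of the 945 genes higher in endodermal organs, the mean in blood was at or below the highest mesodermal organ for 754 (79.8%), in ovary for 719 (76.1%), in skin for 596 (63.1%) and in testis for 528 (55.9%). It was at or above the lowest endodermal organ for 15.9%, 19.2%, 29.1% and 34.1%. All 4 tissues were on the low side for 369 genes (39.0%) and on the high side for 33 (3.49%).

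For the 3733 genes lower in endodermal organs, each of the 4 tissues was more often on the high side than for the 945 higher ones. Testis was at or above the lowest mesodermal organ for 2823 of them (75.6%), ovary for 2063 (55.3%), skin for 1817 (48.7%) and blood for 1634 (43.8%). Blood was more often at or below the highest endodermal organ, for 1779 (47.7%). All 4 tissues were on the high side for 475 genes (12.7%) and on the low side for 89 (2.38%). These shares move with scaling: with all 29 libraries rescaled, testis was on the high side for 54.4% of 2317 lower genes and ovary for 43.5%. Blood was then on the high side for 33.5% of 1981 higher genes. Of the 2317 lower genes, blood was on the high side for 50.5% and on the low side for 42.2%. Among the 120 lower genes with all libraries apart, testis was on the high side for 92, ovary for 85, skin for 59 and blood for 37. Blood was on the low side for 64 of the 120. Among the 25 higher ones, blood was on the low side for 24 and ovary for 20, and skin and testis for 9 each.

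**Figure D5:**
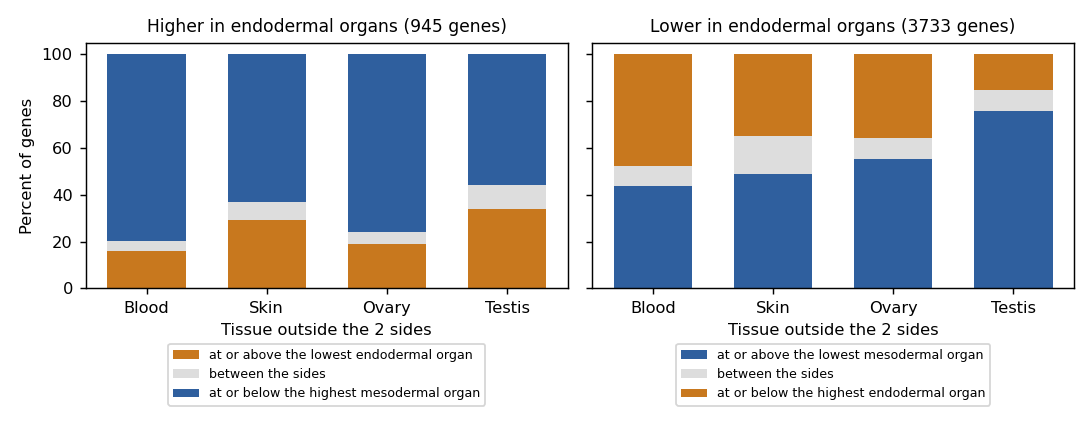
Share of genes whose mean in blood, skin, ovary or testis lies with the endodermal organs (orange), with the mesodermal organs (blue) or between them (grey), for 945 genes higher and 3733 genes lower in endodermal organs, in TPM as deposited. Blood is on the mesodermal side for 79.8% of the former. Of the latter, blood is on the endodermal side for 47.7% and on the mesodermal side for 43.8%, and testis is on the mesodermal side for 75.6%.

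Assembled genes can be pieces of a gene. The 25 and 120 genes with all libraries apart came from 25 and 119 assembly components, so repeated pieces of a component added 1 gene to these counts. The 945 and 3733 genes with organ means apart came from 935 and 3655 components. Near-identical copies that the assembly joined or split remain uncertain.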

How the data were processed

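RNA from 10 tissues was sequenced after poly-T selection with the NEBNext Ultra RNA kit, per the labels' protocols. Values are TPM as the authors deposited them, per the file headers, for 53113 genes with IDs in the style of the Trinity assembler. How reads were aligned, quantified and filtered is not given in the sources used here. Since TPM holds no depth, neither count models nor counting intervals were applied.

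Libraries of liver, lung, stomach, heart, kidney and spleen were tested on log2(TPM + 1) at 1 TPM or more in at least 2 of 18 libraries, with limma 3.58.1 in R 4.3.3, 1 mean per organ and an intensity trend. All contrasts came from that fit, with Benjamini-Hochberg adjustment within a contrast. A second limma fit used the 6 organ means. In simulated data, genes among 46128 were changed 2-, 4-, 8- and 16-fold, 50 at each size. The comparison of the sides recovered 40%, 88%, 100% and 98% of them, with 4 false calls. The fit of organs recovered 0%, 0%, 4% and 40%, with 2. Changed genes were drawn from those with a mean log2(TPM + 1) above 2. For the comparison of the sides, the simulated libraries held no differences between organs of a side. Its 4 false calls therefore do not measure how often such differences lead to a call. Figures used Python 3.11.15 and matplotlib 3.10.9.

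The organs, lists and rules were chosen with earlier results of these data known. Named genes were, at most 2 a direction, the largest differences among called genes with all libraries apart, the largest gaps between organ means, and for each organ the called gene farthest above the rest of its side. The second rule asked for genes called with organs as samples and, with 0 called, used genes whose organ means lie apart. Alternatives were another pseudocount, other filters, rescaling, the replicate block, all 29 libraries in the fit, and leaving out libraries or organs. The numbers of the replicates are shared by the organs without a stated meaning. The largest share of genes with equal values above 0 in any pair of the 18 libraries was 0, so no library was a copy of another. That does not show that they come from separate animals.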

Additional observations from a re-analysis of the deposited data

Results flagged for a closer look

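Of 40 groups of 9 libraries, 1 side and 1 measure each, 6 had a library far from the rest by Dixon's criterion. Chance flags about 1 of 20 groups. The 40 include TRINITY_DN49458_c0_g1 in endodermal libraries, which was listed at 0 in all of them and could not be tested. The 9 libraries of a side come from 3 organs, so a gap can also be a difference between organs.

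Spleen replicate 1 stood apart in 4 of the 6. It had 18410 genes at 1 TPM or more, where the other mesodermal libraries had 28438 to 35795. The 120 genes with all libraries lower in endodermal organs took 1.58% of its TPM, against 0.689% to 1.08% in the others. The 25 genes with all libraries higher in endodermal organs took 0.0025% of it, against 0.0075% to 0.0108%. TRINITY_DN7584_c0_g1, which is abundant in stomach, was at 3.46 TPM in it and at most 0.982 TPM in the other mesodermal libraries.

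The heart gene TRINITY_DN18340_c0_g2 was at 46.0 TPM in lung replicate 2 and at most 0.643 TPM in the other endodermal libraries. The spleen gene TRINITY_DN23449_c0_g1 was at 690 TPM in liver replicate 2 and at most 0.097 TPM in the other endodermal libraries.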

How the results depend on the processing

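The comparison of the sides kept more lower than higher genes under every alternative run, and the fit of organs called 0 genes except without liver (8 higher, 1 lower). A stricter or no filter moved no count by over 1.5 times. Counts follow as higher and lower in endodermal organs where both moved by more. With a pseudocount of 0.1, 7 and 17 genes were called in all 9 pairs, and with all 29 libraries in the fit 17 were higher there. Rescaling gave 3981 genes lower between the sides, 22 higher in all pairs, 1951 and 2338 with organ means apart, 75 and 55 with libraries apart, 6 present only in endodermal organs by the 1 TPM rule, and a median share of spread between sides of 17.5%. Without kidney replicate 1 and liver replicate 2 that share was 18.6%, and 47 genes had all libraries apart upwards. The cause of these moves was not tested.

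With all 29 libraries rescaled, which was chosen after seeing the data, genes higher in endodermal organs were on the high side for 33.5% in blood, 32.8% in skin and 30.2% in testis, and lower genes for 50.5% in blood, 43.5% in ovary, 44.4% in skin and 54.4% in testis.

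Leaving out each of the 18 libraries in turn gave 1662 to 2869 higher and 5554 to 7720 lower genes between the sides, and 0 to 0 in the fit of organs. It gave 7 to 14 and 8 to 34 in all pairs, 718 to 1062 and 2548 to 5978 with organ means apart, 26 to 38 and 124 to 408 with libraries apart, and 3 to 8 and 5 to 20 by the 1 TPM rule.

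Leaving out an organ leaves fewer organs to separate and fewer than 9 organ pairs to call. This eases the conditions for all pairs, organ means apart, libraries apart and the 1 TPM rule. The call between the sides keeps its thresholds, but each organ left on that side weighs more in the side mean. TRINITY_DN1855_c0_g2, abundant in lung, thus went from a log2 difference of 4.56 to 7.20 without liver. Counts between the sides are therefore not free of this change. In the counts that follow, all pairs means all organ pairs that remain. Without liver there were 3308 higher genes between the sides, 200 and 162 in all pairs, 4493 and 8350 with organ means apart, 448 and 640 with libraries apart, and 53 and 58 by the 1 TPM rule. Without lung, 50 and 127 in all pairs, 7376 lower with organ means apart, 103 and 626 with libraries apart, and 9 and 42 by the 1 TPM rule. Without stomach, 26 and 16 in all pairs, 1681 higher with organ means apart, 63 higher with libraries apart, and 10 and 8 by the 1 TPM rule. Without heart, 58 lower in all pairs, 1421 higher with organ means apart, 40 and 288 with libraries apart, and 16 lower by the 1 TPM rule. Without kidney, 3846 lower between the sides, 74 and 59 in all pairs, 2643 higher with organ means apart, 225 and 247 with libraries apart, and 39 and 10 by the 1 TPM rule. Without spleen, 10858 lower between the sides, 24 and 383 in all pairs, 14093 lower with organ means apart, 56 and 2399 with libraries apart, and 6 and 109 by the 1 TPM rule.

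When their own organ was left out, 3 of the 14 named genes turned, and none of the 3 was then called by limma. TRINITY_DN24963_c0_g1 went to -1.01 without liver (log2; limma, Benjamini-Hochberg adjusted p = 0.531). TRINITY_DN18340_c0_g2 went to 0.20 without heart (limma, adjusted p = 0.866) and TRINITY_DN23449_c0_g1 to 0.89 without spleen (limma, adjusted p = 0.551). They were chosen for standing above the rest of their side, so losing the difference is built in. TRINITY_DN1855_c0_g2 went to 0.17 without lung (limma, Benjamini-Hochberg adjusted p = 0.687). Calls were also lost, with the direction kept, for TRINITY_DN24963_c0_g1 without spleen (adjusted p = 0.174) and for TRINITY_DN23449_c0_g1 without lung (adjusted p = 0.0623) and without stomach (adjusted p = 0.086). TRINITY_DN49458_c0_g1 gave no value without kidney, as it failed the filter.

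With the replicate block, 1972 and 6374 genes were called between the sides and 9 and 11 in all pairs. Deviations from organ means correlated at -0.11 to 0.12 over 45 pairs of libraries with the same number, 3 of them over 0.1. The mean was 0.015 for these pairs and -0.0072 for pairs with different numbers. On average, 13 of 18 libraries were closest to their own number. That count was not tested against random numbering, and the pairs share libraries. The labels give the numbers no meaning, so they were not taken as pairs in the main fit. Whether they mark shared animals was not tested. TPM keeps no depth, so genes near 1 TPM may fall on either side of that limit by chance.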
